A study of Homo sapiens with 4 samples.

Results

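The small nucleolar RNA (snoRNA) host genes were taken as all genes whose symbol is SNHG followed by a number, together with GAS5, ZFAS1 and DANCR. This rule gave 31 of the 62443 genes in the table, all annotated as long non-coding RNA genes. In 25 of them FPKM (sequenced fragments per gene, scaled to transcript length and library size) averaged 1 or more over the 4 libraries, and these were tested among 7588 genes. The other 6 are described by their values.

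RNA came from HGC-27, a human gastric cancer cell line, in 2 libraries of cells given GLUP and 2 libraries of control cells. GLUP is a cyclic, amidated peptide built to join molecules of the transcription factor TEAD4, and the comparison asks which transcripts differ after the peptide. It was used at 10 μg/ml, for 12 h in the results text of the study and for 48 h in its methods. By the labels the control cells received nothing, whereas the methods give them the peptide's buffer. The methods name at least 2 biological replicates, without saying whether these were separate cultures. The p-values therefore measure only the spread between these libraries.

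SnoRNAs guide the chemical modification of ribosomal and spliceosomal RNA. C/D box snoRNAs guide ribose methylation, H/ACA box snoRNAs guide pseudouridylation, and the small Cajal body RNAs (scaRNAs) act on spliceosomal RNA. In human cells most of them are cut out of introns. The genes described here carry them in the introns of transcripts that encode no known long protein, and the spliced RNA that remains is, for several of them, a target of nonsense-mediated decay (NMD) during translation. Many host genes start with a C followed by a run of pyrimidines, the terminal oligopyrimidine (TOP) start shared with ribosomal protein genes, which couples the translation of a message to growth signals.

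By RefSeq names, 13 of the 25 tested genes held at least 1 C/D box snoRNA, 9 held H/ACA box snoRNAs alone and 3 held a scaRNA. GAS5 held 11 snoRNAs, 10 of them of the C/D class, and SNHG1 held 8, all of the C/D class. A few snoRNAs are shown with their host because they illustrate what these genes carry and because the host is described below. Capitals mark TGATGA, the letters of box C, within the first 25 bases, and CTGA, the letters of box D, within the last 15 bases, or the ACA near the end of the H/ACA snoRNA. The strand is that of the host. Of 389 SNORD genes in the annotation, 59.1% held TGATGA and 77.4% held CTGA in these windows.
SNORD48 (in SNHG32, chr6:31803040-31803103, plus strand, GRCh37): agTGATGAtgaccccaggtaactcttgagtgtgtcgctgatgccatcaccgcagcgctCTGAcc
SNORD52 (in SNHG32, chr6:31804853-31804919, plus strand, GRCh37): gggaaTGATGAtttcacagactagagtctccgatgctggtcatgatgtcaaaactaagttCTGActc
SNORD12C (in ZFAS1, chr20:47895477-47895565, plus strand, GRCh37): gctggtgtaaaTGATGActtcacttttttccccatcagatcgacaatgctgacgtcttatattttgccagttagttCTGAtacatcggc
SNORD78 (in GAS5, chr1:173834760-173834824, minus strand, GRCh37): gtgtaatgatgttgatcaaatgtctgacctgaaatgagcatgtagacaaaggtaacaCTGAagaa
SNORD99 (in SNHG12, chr1:28905261-28905334, minus strand, GRCh37): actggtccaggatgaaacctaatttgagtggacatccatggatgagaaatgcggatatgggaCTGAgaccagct
SNORA26 (in DANCR, chr4:53579416-53579537, plus strand, GRCh37): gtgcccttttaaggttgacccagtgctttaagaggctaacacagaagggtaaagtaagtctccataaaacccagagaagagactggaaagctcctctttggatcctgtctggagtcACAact

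The start of transcription was read from RefSeq (GRCh38.p14) for 21 of the 25 tested genes. Here a pyrimidine start meant a C at the first transcribed base followed by at least 4 bases that were each C or T, on the transcribed strand. It was present in 6 of the 21 genes (28.6%), against 5.14% of 27305 genes with such a sequence. When the run could start within 5 bases of the annotated start, it was present in 11 genes (52.4%) against 25.2%. The 6 genes are shown with GAS5 and SNHG1, the highest member and a lower one, as 60 bases that begin 30 bases before the start. Capitals mark the pyrimidine run from the first transcribed base.
SNHG32 (chr6:31834886-31834945, plus strand): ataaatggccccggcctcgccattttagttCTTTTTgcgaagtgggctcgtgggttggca
ZFAS1 (chr20:49278612-49278671, plus strand): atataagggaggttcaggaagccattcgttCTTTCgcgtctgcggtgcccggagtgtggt
SNHG19 (chr16:2155329-2155388, minus strand): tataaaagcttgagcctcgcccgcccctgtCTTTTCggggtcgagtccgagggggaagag
SNHG12 (chr1:28581844-28581903, minus strand): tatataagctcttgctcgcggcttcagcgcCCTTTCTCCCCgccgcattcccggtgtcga
SNHG5 (chr6:85678704-85678763, minus strand): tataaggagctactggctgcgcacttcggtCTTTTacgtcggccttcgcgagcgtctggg
SNHG4 (chr5:139274071-139274130, plus strand): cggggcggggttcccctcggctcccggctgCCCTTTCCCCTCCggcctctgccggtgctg
SNHG1 (chr11:62855856-62855915, minus strand): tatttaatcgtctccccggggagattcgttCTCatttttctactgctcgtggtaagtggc
GAS5 (chr1:173869016-173869075, minus strand): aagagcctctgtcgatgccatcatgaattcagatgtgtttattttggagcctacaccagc

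The SNHG1 start ran over 3 pyrimidines, and the RefSeq start shown for GAS5 had none. Starts outside RefSeq were not searched, so whether GAS5 has a pyrimidine start at another position was not tested. GGAATG, the letters of the M-CAT element that TEAD factors bind, was searched on both strands in the 300 bases from 250 before to 50 after the start. It occurred in 2 of the 21 genes (9.52%), SNHG3 and SNHG12, against 16.7% of all genes. CACGTG, the E-box letters, occurred in 2 of the 21 genes against 8.77%, and CCGGAAG on either strand, the letters of an ETS site, in 2 against 12.2%. None of these searches bears on whether a factor binds there.

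Across all genes tested, FPKM values were lower in the GLUP libraries for 66.7% and the median log2 fold change was -0.36, so members are also described relative to that shift. The 2 controls resembled each other less (Pearson r = 0.933 across genes) than the 2 GLUP libraries did (r = 0.986). Fold changes went with the GC content of the transcript over all genes (Spearman rho = 0.58). FPKM sums ranged from 909735 to 949919 per library. The table gives no read counts, so depth is unknown. VIM, a mesenchymal gene, had 293 to 387 FPKM, the keratins KRT8, KRT18 and KRT19 had 0.764 to 2.25, and the epithelial genes CDH1 and EPCAM were at 0.124 or less. CDH2, also mesenchymal, was at 0.051 or less, and PECAM1, of endothelium, was not matched by symbol. Of the genes of other cell types, PTPRC, of leukocytes, was at 0.0394 or less and ALB, of hepatocytes, was at 0 in every library. The fibroblast genes DCN and COL1A1 had 20.1 to 41.3 and 2.97 to 6.90 FPKM, and their part in any result was not tested.

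The tested host genes spanned nearly 3 orders of magnitude. In total, 3 had a mean over 100 FPKM, 14 had a mean of at least 10 and 11 lay between 1 and 10. GAS5 and SNHG29 alone supplied 80.6% to 88.7% of the summed FPKM of all members. That sum was 3593 and 5336 in the controls and 2592 and 2732 in the GLUP libraries. Without these 2 genes it was 572 and 601 against 502 and 489.

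**Figure D1:**
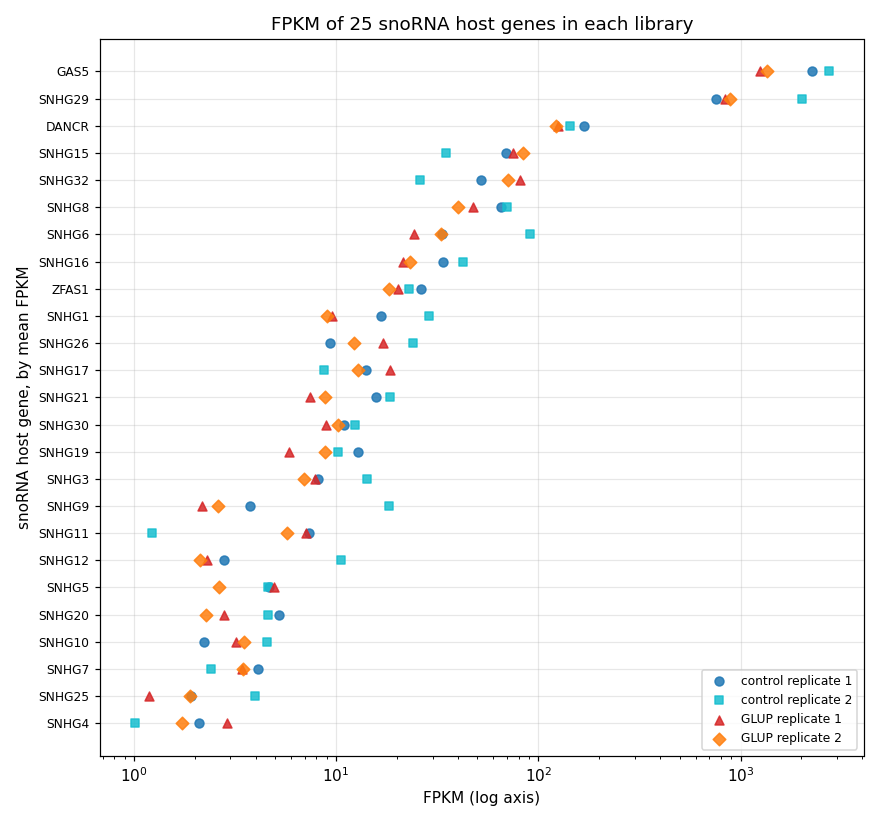
FPKM (log axis) of the 25 tested snoRNA host genes, ordered by mean, with 1 point for each of the 2 control and 2 GLUP libraries. GAS5 leads in every library, the GLUP points lie close together for most genes, and control replicate 2 lies apart from the other 3 libraries for SNHG29, SNHG6, SNHG9, SNHG12 and SNHG11.

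With GLUP, 18 of the 25 genes (72%) had a lower mean on the log2(FPKM + 1) scale, near the 66.7% of all genes. Both GLUP libraries lay below both controls for 15 members (60%), against 49.7% of all genes tested. Both lay above for 2 members (8%), against 17.5%. None of the 25 was called at an adjusted p under 0.05 with more than a 2-fold difference (limma with Benjamini-Hochberg adjustment), and the adjusted p ranged from 0.106 to 0.947. Only 2 of 7588 genes passed (0.0264%). In simulated data a minority of genes shifted by 2 on the log2 scale were called, with both groups given the same spread. The controls here varied more than the GLUP libraries, so that rate may not hold for these data. At an unadjusted p under 0.05 with the same fold, 1 member passed, SNHG1, against 19.2% of all genes (14.5% lower and 4.67% higher). At that p with no fold limit, 4 members passed, against 31.7% of genes. With 2 libraries against 2, the smallest two-sided p of a permutation test is 0.333, and none was made. The median log2 fold change of the members was -0.49, which is 0.14 below that of all genes, with 13 members below and 12 above that median. As a group the host genes therefore sat near the whole transcriptome.

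GAS5 (chr1:173827697-173838020, GRCh37, minus strand), named for its accumulation in growth-arrested cells, is a decay target whose snoRNAs derive from its introns. It had 2261 and 2731 FPKM in the controls and 1254 and 1358 in the GLUP libraries. Both GLUP libraries were near the same level, and the groups did not overlap. The mean with GLUP was 52.3% of the control mean, with a log2 fold change of -0.93 ± 0.27 (SE, n = 2 and 2; limma adjusted p = 0.106), the lowest adjusted p of any member. Leaving out any 1 library gave values from -1.07 to -0.79. The longest GAS5 transcript has a GC content of 39.2%, at the low end of the members. After removal of each library's trend with GC content the log2 fold change was -0.19. That removal, here and below, also takes out the shift of all genes. Relative to all genes, GAS5 was at -0.57 before it and -0.19 after it.

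SNHG1 (chr11:62619450-62623425, minus strand) carries SNORD22 and SNORD25 to SNORD31. It had 16.6 and 28.8 FPKM in the controls and 9.54 and 9.02 with GLUP. The GLUP libraries were again close and below both controls. The log2 fold change was -1.16 ± 0.37 (adjusted p = 0.118), -0.78 without control replicate 2 and -0.53 with the GC trend removed.

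The remaining C/D box hosts were mostly lower with GLUP, by differing amounts. SNHG16 (chr17:74553809-74667067), host of SNORD1A, SNORD1B and SNORD1C, had 33.6 and 42.5 FPKM against 21.4 and 23.3, a log2 fold change of -0.73 ± 0.33 (adjusted p = 0.181). SNHG19, host of SNORD60, had 12.9 and 10.2 against 5.84 and 8.84 (-0.60 ± 0.34). In both genes the groups were separate, and with the GC trend removed the values were -0.26 and -0.74. ZFAS1, host of the SNORD12 family, had 26.4 and 22.9 FPKM against 20.3 and 18.3, a small difference of -0.33 ± 0.31. SNHG30, host of SNORD7, had 10.9 and 12.4 against 8.95 and 10.2 (-0.26 ± 0.30). These small differences did not exceed the shift of all genes. SNHG5, host of SNORD50A and SNORD50B, had 4.63 and 4.61 FPKM in the controls and 4.92 and 2.62 with GLUP, so the groups overlapped. SNHG26, host of SNORD93, overlapped too, with 9.29 and 24.0 against 17.0 and 12.2 FPKM. SNHG25, host of SNORD104, had 1.91 and 3.98 against 1.18 and 1.89, with the lowest control barely above the highest GLUP library. Its -0.60 ± 0.35 became -0.21 without control replicate 2 and -1.11 with the GC trend removed.

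SNHG29, SNHG6 and SNHG12 formed a set in which 1 control carried the difference. SNHG29 (chr17:16342081-16383563, plus strand), host of SNORD49A, SNORD49B and SNORD65, had 760 and 2004 FPKM in the controls and 837 and 885 with GLUP. Its control replicate 1 lay below both GLUP libraries. The log2 fold change was -0.52 ± 0.49 (adjusted p = 0.470), and 0.18 without control replicate 2. SNHG6, host of SNORD87, had 33.2 and 90.8 FPKM against 24.2 and 33.2, and its -0.93 ± 0.54 became -0.22 without control replicate 2 and -0.24 with the GC trend removed. SNHG12 (chr1:28905050-28909644, minus strand), host of SNORD99 and 3 H/ACA box snoRNAs, had 2.80 and 10.6 FPKM against 2.30 and 2.13. The SNHG12 value of -1.05 ± 0.54 became -0.24 without control replicate 2 and -1.37 with the GC trend removed.

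SNHG32 (chr6:31802385-31807543, plus strand), host of SNORD48 and SNORD52, was the only C/D box host with a higher mean. It had 52.0 and 26.1 FPKM in the controls and 80.9 and 71.0 with GLUP, so the groups did not overlap. The GLUP mean was 1.95 times the control mean, with a log2 fold change of 1.02 ± 0.43 (adjusted p = 0.165). It was 0.53 without control replicate 2, 1.504 without control replicate 1 and 1.11 with the GC trend removed, and it was above 0 under all 14 alternatives.

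The hosts of H/ACA box snoRNAs alone were split, with 4 of 9 lower. SNHG15 (chr7:45022618-45026560, minus strand), host of SNORA9, was the other member with both GLUP libraries above both controls. It had 69.4 and 35.1 FPKM in the controls and 75.0 and 83.9 with GLUP, a log2 fold change of 0.67 ± 0.42 (adjusted p = 0.297). Control replicate 1 was near the GLUP libraries, and without control replicate 2 the value was 0.19. SNHG17, host of the SNORA71 family, had 14.1 and 8.68 FPKM against 18.4 and 12.9 (0.44 ± 0.38). SNHG11, host of SNORA60 and SNORA71E, had 7.38 and 1.23 against 7.08 and 5.71 (0.77 ± 0.63). Both overlapped between groups, and without control replicate 2 the differences were 0.12 and -0.19. SNHG4, host of SNORA74A, had 2.09 and 1.01 FPKM against 2.90 and 1.72, and SNHG7, host of SNORA17A and SNORA17B, had 4.13 and 2.40 against 3.44 and 3.48. Neither separated the groups.

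Of the H/ACA box hosts with a lower mean, SNHG8 and DANCR were the highest. SNHG8, host of SNORA24, had 65.0 and 70.4 FPKM in the controls and 47.8 and 40.3 with GLUP (-0.61 ± 0.32, adjusted p = 0.232). DANCR, which is known for holding back differentiation of progenitor cells, had 169 and 144 against 126 and 122 (-0.33 ± 0.32). Both pairs of libraries were separate, but with the GC trend removed the values were 0.13 and 0.22. With libraries only centred on their medians they were -0.27 and 0.015. SNHG3, host of SNORA73A and SNORA73B, had 8.18 and 14.2 FPKM against 7.83 and 6.96 (-0.49 ± 0.36). Its value was -0.13 without control replicate 2, -0.85 without control replicate 1 and -0.11 with the GC trend removed. SNHG9 (chr16:2014896-2015510, plus strand), host of SNORA78, had 3.74 and 18.2 against 2.18 and 2.61. Its log2 fold change of -1.49 ± 0.65 (adjusted p = 0.177) was the lowest of all members and was -0.49 without control replicate 2.

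The hosts of scaRNAs were SNHG21, SNHG20 and SNHG10. SNHG21 (chr15:83419316-83425958, plus strand), host of SCARNA15, had 15.8 and 18.5 FPKM in the controls and 7.42 and 8.78 with GLUP, or 47.3% of the control mean. Its libraries agreed within each group, and the log2 fold change of -0.99 ± 0.31 (adjusted p = 0.113) stayed between -1.10 and -0.89 when any 1 library was left out. With the GC trend removed it was -0.43. SNHG20 (chr17:75082798-75095984, plus strand), host of SCARNA16, had 5.20 and 4.61 FPKM against 2.78 and 2.28, a log2 fold change of -0.74 ± 0.27 (adjusted p = 0.136). Its value with the GC trend removed was also -0.74, but that removal takes out the shift of all genes as well. Relative to all genes, SNHG20 moved from -0.39 to -0.74. SNHG10, host of SCARNA13, had 2.24 and 4.55 against 3.21 and 3.51, with both GLUP libraries between the controls.

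**Figure D2:**
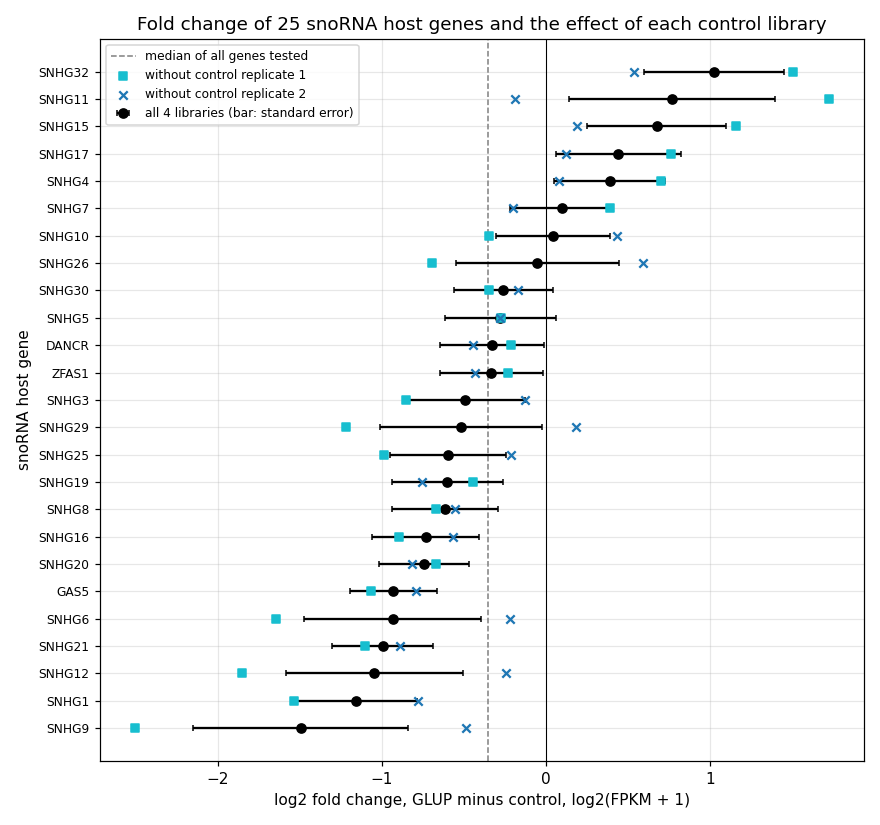
Log2 fold change, GLUP minus control on log2(FPKM + 1), of each tested host gene. Black points use all 4 libraries with bars of 1 standard error, squares leave out control replicate 1, crosses leave out control replicate 2, and the dashed line is the median of all genes tested (-0.36). GAS5, SNHG21, SNHG20, SNHG16 and SNHG8 keep similar values in all 3 fits, whereas SNHG9, SNHG12, SNHG6, SNHG29 and SNHG11 move widely.

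By class, 12 of 13 hosts with a C/D box snoRNA had a log2 fold change below 0 (median -0.60), against 4 of 9 hosts with H/ACA box snoRNAs alone (median 0.09) and 2 of 3 scaRNA hosts (median -0.74). Of all genes tested 66.7% were below 0, and 5 of the 13 C/D box hosts and 6 of the 9 H/ACA box hosts lay above the all-gene median. With libraries centred on their medians, 8 of 13 and 3 of 9 were below 0, and with the GC trend removed the counts were the same. These classes were compared after the values were known and are given as a description. Without control replicate 2 the counts were 10 of 13 and 6 of 9, and the medians -0.24 and -0.19, so the classes lay close together. The 6 genes with a pyrimidine start did not move together. Their log2 fold changes were 1.02 for SNHG32, 0.39 for SNHG4, -0.28 for SNHG5, -0.33 for ZFAS1, -0.60 for SNHG19 and -1.05 for SNHG12.

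The gap between the controls was larger than the group difference for 13 of the 25 genes, a count not made over all genes. That gap was over 1 on the log2 scale in 24% of members and 19.1% of all genes tested. Its median size was 0.64 on the log2 scale for the members and 0.48 for all genes, whereas the gap between the GLUP libraries was 0.18 and 0.20. Control replicate 2 differed by more than 1 on the log2 scale from each of the other 3 libraries in 5 members (20%), SNHG29, SNHG6, SNHG9, SNHG12 and SNHG11, against 13.2% of all genes tested. No other library stood apart in this way for any member. Of the 5 genes, 4 were higher in that control, and SNHG11 was lower, at 1.23 FPKM against 5.71 to 7.38 in the rest.

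**Figure D3:**
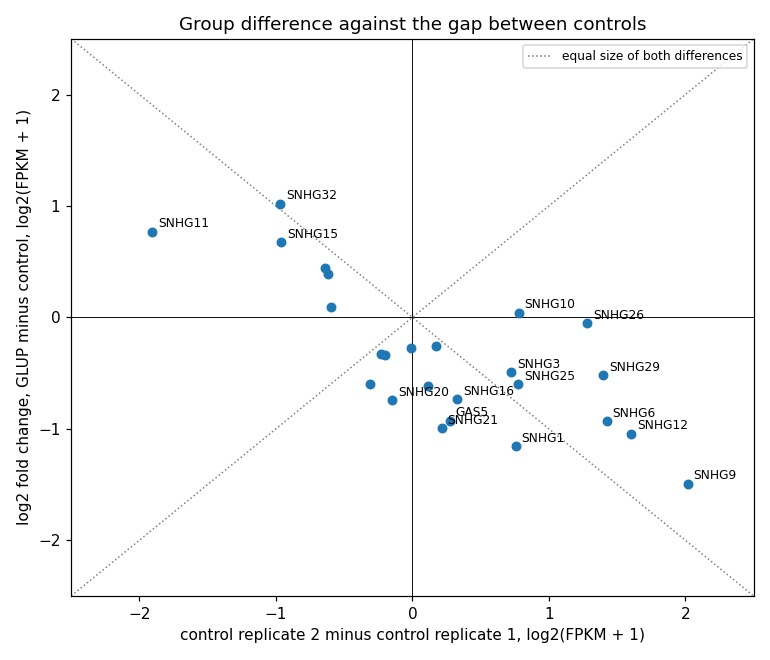
Log2 fold change (GLUP minus control) against the difference between control replicate 2 and control replicate 1, both on log2(FPKM + 1), for the 25 host genes. Dotted lines mark equal size of both differences, and both axes use control replicate 2. GAS5, SNHG21, SNHG20 and SNHG16 combine a small control gap with a larger group difference, whereas SNHG9, SNHG12, SNHG6, SNHG29 and SNHG11 have the largest control gaps.

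Leaving out a control changed the calls. Without control replicate 1, in which the lone control is assumed to vary like the GLUP libraries, 10 members passed the adjusted limits of the limma fit. SNHG32, SNHG15 and SNHG11 were higher, and GAS5, SNHG29, SNHG6, SNHG1, SNHG21, SNHG9 and SNHG12 were lower. This rested on a background of 2710 genes (35.7%). Without control replicate 2 no member passed, by either criterion, against 1020 genes (13.4%). GAS5 (adjusted p = 0.0454) and SNHG21 (adjusted p = 0.0481) missed only the fold limit of that limma fit, and both were under 0.05 with either control left out. At that adjusted p with any fold, 18.7% of all genes passed in that fit, and 53.2% when control replicate 1 was the one left out. Dropping control replicate 2 moved the members' median, taken relative to all genes, from -0.14 to 0.12. Dropping control replicate 1 instead moved that median to -0.33.

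The GC content of the members' longest transcripts ran from 39.0% to 66.5% (median 46.6%, with 46.5% for all genes tested). Across the 25 members the fold change hardly went with GC content (Spearman rho = 0.10), and genes share libraries, so this is a description. SNHG9, SNHG12 and SNHG25 combined a high GC content with a negative fold change. With the GC trend removed, 7 members changed sign. Of these, DANCR, ZFAS1, SNHG26, SNHG30 and SNHG5 also did so when libraries were only centred on their medians, whereas SNHG8 and SNHG7 did not.

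**Figure D4:**
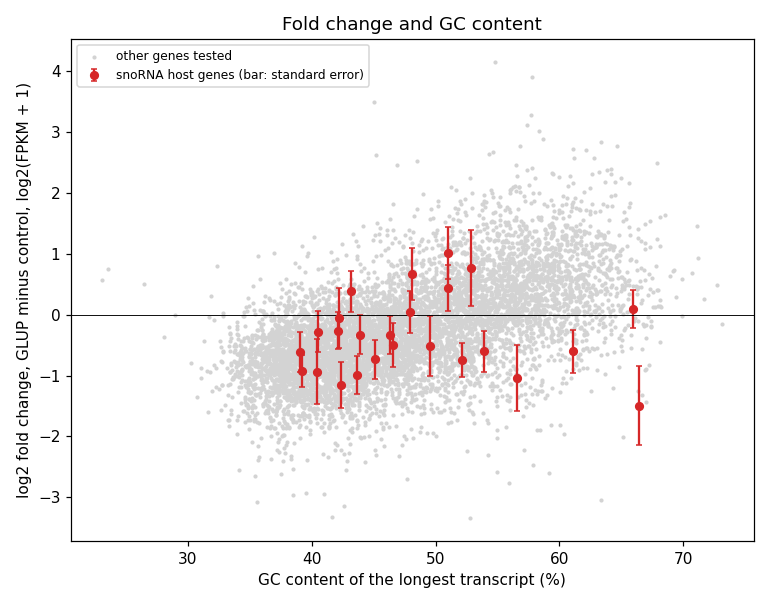
Log2 fold change (GLUP minus control, log2(FPKM + 1)) against the GC content of the longest transcript, with all genes tested in grey and the 25 host genes in red (bars of 1 standard error). The grey cloud rises from left to right (rho = 0.58), and the host genes at 60% GC or more lie on its lower side.

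Only snoRNA genes placed inside a host by the annotation lifted to GRCh37 were looked up, 22 of them in 15 tested hosts. That annotation placed 1 inside GAS5 and 0 inside SNHG1, against 11 and 8 by RefSeq names. The levels of snoRNAs it did not place were not examined. Of the 22 genes, 4 averaged 1 FPKM or more. Another 2 were at 0 in every library. SNORD99 had 1.33 FPKM in control replicate 1, 7.99 in control replicate 2 and 1.07 and 1.09 with GLUP. Its high library was thus the one in which its host SNHG12 was high. SNORA26 in DANCR had 2.36, 1.53, 1.77 and 0.466 FPKM in the order control replicates 1 and 2 and GLUP replicates 1 and 2. SNORD12C in ZFAS1 had 0.313, 1.15, 0.870 and 1.31, and SNORD48 in SNHG32 was listed at 0 in both controls and had 0.0978 and 0.362 with GLUP. Whether such fragments came from a snoRNA or from its unspliced host cannot be told apart.

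Of the 6 untested members, no value passed 0.995 FPKM. SNHG18 had the highest mean (0.792 FPKM), followed by SNHG31 (0.313) and SNHG22 (0.143), and SNHG28 was listed at 0 in all 4 libraries. SNHG14, the long host in the Prader-Willi region, had 0.0174 FPKM or less in each.

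Several hosts overlap another gene, and the strand setting of the counting is not given in the sources used here. SNHG3 shares its strand with RCC1, which had 2.37, 1.31, 4.05 and 3.30 FPKM, lowest in the library where SNHG3 was highest. SNHG4 shares its strand with MATR3 (5.10, 3.12, 6.53 and 2.25) and lies against SIL1 (11.6, 4.84, 17.5 and 17.5), and both can share reads with it. SNHG10 lies against GLRX5, which had 12.4, 16.3, 5.01 and 3.91 FPKM. SNHG20 shares its strand with SEC14L1 (1.21, 0.981, 0.905 and 0.689), and SNHG7 lies against DIPK1B (1.38, 0.565, 1.78 and 1.44). The values of SNHG3, SNHG4, SNHG7, SNHG10 and SNHG20 are uncertain for this reason. SNHG12 lies against TRNAU1AP (5.46, 3.36, 1.82 and 2.87), but the annotated genes meet only at chr1:28905050-28905057.

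Protein-coding genes that host snoRNAs, many of which encode ribosomal proteins, lay mostly above 0. Of 35 listed, 33 were tested, 21 had a log2 fold change above 0 and the median was 0.19, which is 0.54 above that of all genes. Both GLUP libraries lay above both controls for 13 and below for 7. The shares of all genes were 17.5% and 49.7%. None passed the adjusted test, and 3 of 33 passed the unadjusted p and fold limits, all higher, against 4.67% of all genes higher and 19.2% in either direction. RPS3 and RPL5, the highest, had 2671 and 1944 against 2863 and 3106 FPKM and 1884 and 1323 against 2126 and 2412. RPL10 had 1273 and 376 against 2482 and 2206 (1.76 ± 0.58), the largest non-overlapping positive difference. RPS20 had 671 and 1997 against 489 and 540 (-1.17 ± 0.54), the largest negative one. Control replicate 2 was again the farthest library for RPL10 and RPS20.

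The proteins of snoRNA particles and their assembly (17 listed, 15 tested) had a median of -0.58, which is -0.22 relative to all genes, with 10 below 0. GLUP lay below both controls in 8 of 15 (49.7% of all genes) and above in 2 (17.5%). None passed the adjusted test, and 2 passed the unadjusted limits (19.2% of all genes), 1 in each direction. These counts were near those of all genes. NOP58, a core C/D protein, had 179 and 255 FPKM against 69.6 and 67.4, a log2 fold change of -1.63 ± 0.34 (adjusted p = 0.1). Among the H/ACA core proteins, NOP10 had 753 and 2002 against 536 and 784, and NHP2 had 413 and 196 against 613 and 625 (1.12 ± 0.43). Core members thus lay on either side of 0.

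Of 14 NMD factors, 8 were tested and 6 had a value below 0 (median -0.53, or -0.18 relative to all genes). GLUP lay below both controls in 5 of 8 (49.7% of all genes) and above in 2 (17.5%), and 1 passed the unadjusted limits (19.2%). This was EIF4A3, a core of the exon junction complex, with 15.4 and 8.40 FPKM against 2.69 and 3.40 (-1.62 ± 0.37, adjusted p = 0.1). RBM8A and MAGOH, its partners, had 858 and 1258 against 714 and 772 and 47.3 and 52.7 against 58.8 and 56.7. SMG5 had 1.10 and 0.410 against 1.65 and 1.48 (0.57 ± 0.28). Of 9 regulators of TOP messages, 7 were tested, 5 were below 0 (66.7% of all genes) and GLUP lay below both controls in 5 (49.7%) and above in none. Their median of -0.31 was 0.043 above that of all genes. Of the 7, 2 passed the unadjusted limits, both lower (14.5% of all genes). TIAL1, which binds TOP messages under stress, had 3.34 and 9.41 FPKM against 1.48 and 0.947 (-1.61 ± 0.46, adjusted p = 0.106). EIF4EBP1 had 1223 and 158 against 472 and 434, and CNBP had 386 and 159 against 291 and 272, so in both the controls enclosed the GLUP libraries. No gene of the 4 lists passed the adjusted test. NOP56 and DKC1 stand in 2 of the lists. In bulk RNA, a transcript lost from some cells and less of it in each cell cannot be told apart.

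**Figure D5:**
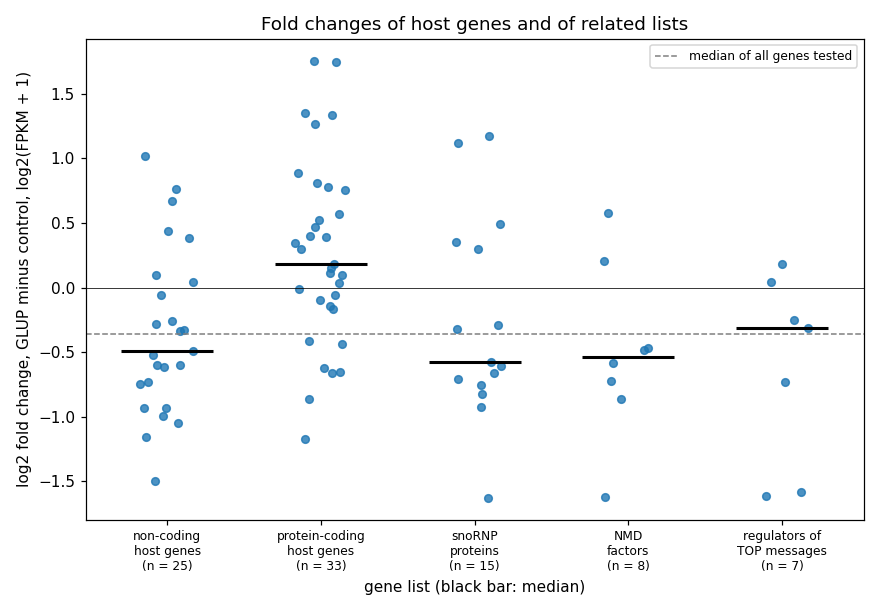
Log2 fold change (GLUP minus control, log2(FPKM + 1)) of each tested gene in 5 lists, with a black bar at each median and a dashed line at the median of all genes tested (-0.36). The non-coding host genes have a median of -0.49, and the protein-coding host genes 0.19, with wide overlap between lists.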

How the data were processed

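RNA-seq of 4 HGC-27 libraries (2 control, 2 GLUP) was used. The authors deposited a table of FPKM values by gene. The submitters' processing notes name HISAT2, Cufflinks, RSEM and GRCh38.p10 without versions or roles, whereas the row identifiers have the form of the GENCODE annotation lifted to GRCh37, which was used here for symbols, positions, GC content and snoRNA sequences. Of 62443 genes, after rows of one ID were summed, 99.55% matched without version. Values down to 1e-06 FPKM show estimated rather than whole reads, and no counts could be recovered.

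Values were taken as log2(FPKM + 1), which understates changes of low genes, and the 7588 genes averaging 1 FPKM or more were fitted in limma 3.58.1 (R 4.3.3; mean-variance trend, two-sided, Benjamini-Hochberg over all 7588). In 20 simulations of this comparison over 7588 genes, 200 were moved by 2 (log2), and both groups were given the same spread, unlike these data. Of the moved genes 38.4 were called on average, with 2.45 false calls. GC trends were removed per library by lowess (span 0.3), which also removes the shift of all genes. RefSeq supplied names of snoRNAs inside each host, and start sequences for 21 members. Every tested member is named with its values. Of each other list, the 2 highest genes and the largest positive and negative non-overlapping differences are named. SNHG14, SNHG28 and the snoRNAs shown were named after their values were seen. Members and lists were chosen with earlier results of these data known. The alternatives were other pseudocounts, filters, scalings, fold limits, a replicate block, no variance trend, and leaving out each library.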

Additional observations from a re-analysis of the deposited data

How the results depend on the processing

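The 25 host genes gave 343 values under the alternatives, of which 32 changed sign, and 15 genes kept theirs throughout. Depth is unknown, and the lone library of a reduced group is assumed to vary like the others. Leaving out 1 library gave 4 to 2710 adjusted calls over all genes and 587 to 2729 unadjusted ones (p and fold limits). For the host genes this gave 0 to 10 of each and a median relative to all genes of -0.33 to 0.12. Adjusted and unadjusted calls ran from 0 to 9 and 0 to 9 for protein-coding hosts, 0 to 4 and 0 to 4 for snoRNA particle proteins, 0 to 3 and 1 to 3 for NMD factors, and 0 to 4 and 1 to 4 for TOP regulators. Their relative medians ran from 0.50 to 0.72, -0.23 to -0.10, -0.38 to -0.022 and -0.12 to 0.091. In each of these cases the largest count came without control replicate 1. Of single genes, some turned sign with 1 library left out, with values from -1.22 to 0.18 for SNHG29, -0.69 to 0.59 for SNHG26, -0.19 to 1.72 for SNHG11, -0.20 to 0.39 for SNHG7, -0.35 to 0.43 for SNHG10 and -0.63 to 0.076 for SNHG5. The correlation of same-numbered libraries' deviations was 0.126, from only 2 pairs, and nothing ties equal numbers to a shared culture. With the replicate number as a block, 3 host genes and 6 protein-coding hosts passed the unadjusted limits, against 1688 of all 7588 genes. No adjusted call among the host genes or the other lists changed. A pseudocount of 0.1 gave 1 adjusted and 2064 unadjusted calls over all genes, 2 unadjusted host genes and a relative median of 0.10 for TOP regulators. With no filter there were 0 adjusted calls, 1293 unadjusted ones over all genes and 1 unadjusted particle protein. The relative medians were -0.31 for host genes, 0.21 for protein-coding hosts, -0.30 for particle proteins, -0.39 for NMD factors and -0.23 for TOP regulators. A mean of at least 5 FPKM gave 0 adjusted calls, 890 unadjusted ones, 1 unadjusted TOP regulator and relative medians of 0.11 for particle proteins and 0.47 for TOP regulators, with fewer genes tested. Centring gave 1 adjusted call and 1224 unadjusted ones over all genes, among them 9 protein-coding hosts and 1 TOP regulator. It turned DANCR (0.015), ZFAS1 (0.0097), SNHG26 (0.29), SNHG30 (0.082) and SNHG5 (0.064). Quantile normalization gave 1 adjusted call, 1159 unadjusted ones over all genes and 1 unadjusted TOP regulator. It gave relative medians of 0.36 for protein-coding hosts and 0.16 for TOP regulators, and turned ZFAS1 (0.034), SNHG26 (0.32), SNHG30 (0.13) and SNHG5 (0.072). Without a variance trend there were 0 adjusted calls, 1461 unadjusted ones over all genes and 2 unadjusted host genes. With the GC trend removed there were 0 adjusted and 700 unadjusted calls, 2 unadjusted host genes, 7 protein-coding hosts, 0 particle proteins and 0 TOP regulators, with relative medians of -0.16, 0.022 and -0.23 for particle proteins, NMD factors and TOP regulators. DANCR (0.22), SNHG8 (0.13), ZFAS1 (0.067), SNHG26 (0.58), SNHG30 (0.38), SNHG5 (0.42) and SNHG7 (-0.52) changed sign. The GC correction with the block gave the same medians and signs, 16 adjusted and 834 unadjusted calls, 4 unadjusted host genes, 7 protein-coding hosts, 0 particle proteins and 0 TOP regulators. A fold limit of 1.5 gave 2401 unadjusted genes and 4 host genes, and the ratio of mean FPKM turned SNHG10 (-0.012). The causes of these changes were not tested.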
